A study of Mus musculus with 4 samples.

Results

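The dorsolateral striatum (DLS) of mice with both copies of Foxp2 humanised (Foxp2hum/hum) was compared with the DLS of wild-type mice. The comparison rests on the 12 libraries headed Foxp2hum/hum DLS and the 11 headed wild-type DLS, 23 of the 46 libraries in the table. The other 23, 12 Foxp2hum/hum and 11 wild-type, came from the dorsomedial striatum (DMS) and serve to set the regions side by side. They also enter the choice of genes tested and the estimate of spread behind the limma p-values and intervals for the DLS. All mice were C57BL/6 and 8 weeks old, and the labels name no other allele and no treatment. Tissue was taken from frozen brains by laser capture, so a library holds the RNA of every cell type in the captured area. The labels tie no library to an animal or a flow cell, so p-values measure the spread between libraries, which may be partly technical. Each value is a normalised read count, the reads of a gene divided by 1 size factor per library.

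FOXP2 is a forkhead transcription factor that binds DNA as a dimer with itself or with its relatives FOXP1 and FOXP4, and disruption of the human gene impairs speech. In the striatum it is made in the medium spiny projection neurons, whose direct-pathway and indirect-pathway classes carry the output of the region. The humanised allele is known from published work to replace a threonine and an asparagine of the mouse protein with the asparagine and serine found in humans. The DLS serves habits and procedural learning, and the DMS goal-directed action. The question put to the DLS libraries was which genes, if any, were expressed at another level with the humanised allele.

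The stretch of the mouse Foxp2 coding sequence in which the alleles differ is shown because it is the only difference the genotype labels imply. It lies in 1 exon of Foxp2 (mm9 chromosome 6, exon from 15344640 to 15344853), at chr6:15344759-15344851 on the plus strand. The letters are the wild-type sequence of the reference genome. Capitals mark the codons of the threonine and of the asparagine that the humanised protein lacks, 22 codons apart.
Foxp2 coding stretch, wild-type: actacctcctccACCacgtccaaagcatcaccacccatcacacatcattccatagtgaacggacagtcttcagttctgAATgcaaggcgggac

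Both groups carried the transcripts of dorsolateral projection neurons. Ppp1r1b, which encodes the dopamine-regulated phosphatase inhibitor DARPP-32, had medians of 43853 in Foxp2hum/hum and 44035 in wild-type. Cnr1, the cannabinoid receptor gene that marks lateral striatum, averaged 11369.5 ± 1347 in Foxp2hum/hum and 12426 ± 2550.0 in wild-type (SD, n = 12 and 11). Crym, which marks medial striatum, averaged 314 ± 77 in Foxp2hum/hum and 283 ± 91.8 in wild-type in DLS, against DMS means of 3391 in Foxp2hum/hum and 3280.2 in wild-type. The labelled region was thus borne out by its markers in both groups, and projection neuron transcripts were present. The labels name no cell type, and the oligodendrocyte gene Mbp had medians of 51836 in Foxp2hum/hum and 49611 in wild-type. Reads over genes ran from 19.5 to 30.5 M (megareads) per library in Foxp2hum/hum and from 16.8 to 41 M in wild-type. The library least like the other DLS libraries had a median correlation with them of 0.939 in Foxp2hum/hum (library 60) and 0.944 in wild-type (library 70).

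No difference in the Foxp2 transcript was detected between the genotypes. Foxp2 (ENSMUSG00000029563, chromosome 6, 14851349 to 15391977) ran from 752 to 1447 normalised reads with a median of 1019 in Foxp2hum/hum, and from 754 to 1449 with a median of 1114 in wild-type. The groups overlapped over almost their whole range, and 9 of the 12 Foxp2hum/hum libraries lay below the wild-type median. The log2 difference was -0.08 ± 0.11 (SE), with a 95% interval of -0.30 to 0.14 (two-sided permutation p = 0.507, limma adjusted p = 0.861). That small difference changed sign in 4 fits with another covariate, so no direction is given for it. Because the allele alters protein sequence, transcript level is no check of which allele a library carries.

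The genes that lie beside Foxp2 were examined because a targeted allele brings a stretch of chromosome with it. Within 5 Mb of Foxp2, 26 genes were tested. Their log2 differences ran from -0.32 to 0.61 with a median of 0.016, and 0 passed at an adjusted p under 0.05. Only 1 had an unadjusted p under 0.05, where 4.31% of all genes did. It was the clone gene 2610001J05Rik, named after its values were seen (315 in Foxp2hum/hum and 269.8 in wild-type, log2 0.27 ± 0.13 (SE)). Mdfic, which encodes an inhibitor of MyoD-family factors and lies next to Foxp2, averaged 52.5 ± 18 in Foxp2hum/hum and 60.6 ± 15.9 in wild-type (SD). Cav1, which encodes the membrane coat protein caveolin, averaged 156 ± 33.4 in Foxp2hum/hum and 191 ± 47.1 in wild-type, and Cttnbp2, a cortactin-binding protein gene of dendritic spines, 1122 ± 205 in Foxp2hum/hum and 1202 ± 198 in wild-type. None of them differed beyond the spread between libraries, with log2 differences of -0.24 ± 0.20 (SE) for Mdfic, -0.27 ± 0.15 (SE) for Cav1 and -0.10 ± 0.11 (SE) for Cttnbp2.

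**Figure D1:**
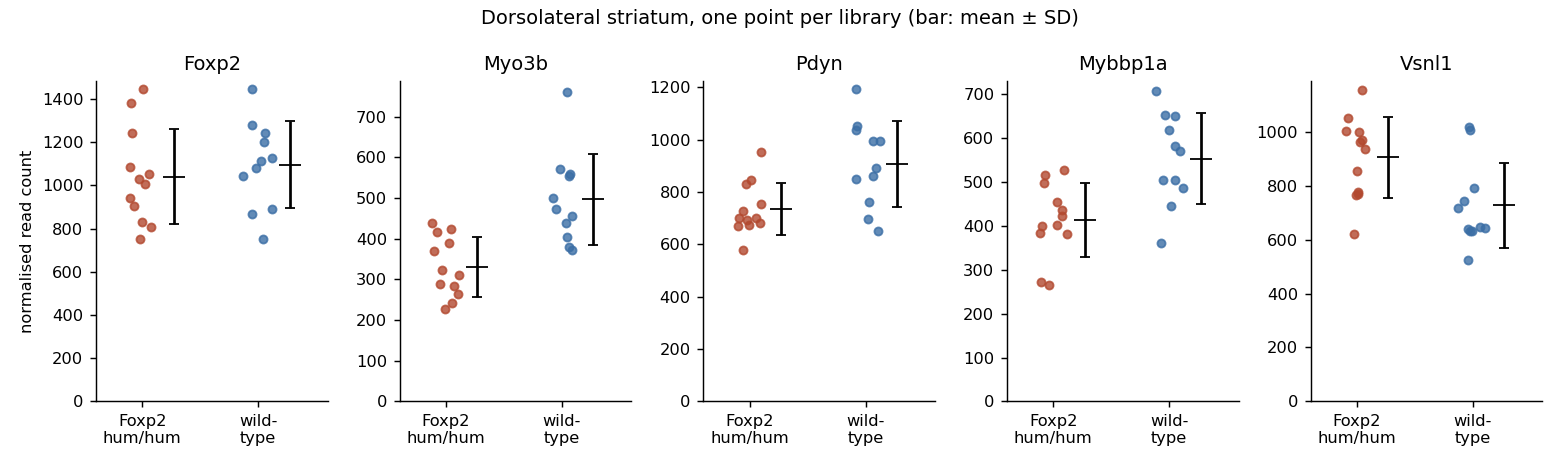
Normalised read counts of 5 genes in the DLS, 1 point per library, with Foxp2hum/hum (12 libraries) left of wild-type (11 libraries) and a bar for the mean ± SD. Foxp2 overlaps almost fully, while 8 of 12 Foxp2hum/hum libraries lie below every wild-type library for Myo3b, and in no panel are the groups fully apart.

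Across the transcriptome, no gene passed. Testing covered 19561 genes, those that averaged 10 or more normalised reads over all 46 libraries, and 0 (0.0%) had a limma adjusted p under 0.05. The smallest adjusted p was 0.344, for Myo3b, and the next 0.759. At an unadjusted p under 0.05 there were 843 genes (4.31%), fewer than the 978 that make up 5% of the genes tested. Of these, 388 (1.98%) were higher and 455 (2.33%) lower in Foxp2hum/hum. With the DLS libraries fitted alone, the smallest limma adjusted p was 0.882 and 709 genes had an unadjusted p under 0.05. edgeR on the recovered reads also called 0 genes, and DESeq2 called 3 (Myo3b, AI115009 and Ccdc153). There was no gene whose 12 Foxp2hum/hum values all lay on 1 side of its 11 wild-type values. The count of 843 hung on single libraries. It was 1821 without wild-type library 51, 1354 without wild-type library 43 and 1642 without Foxp2hum/hum library 94. Other omissions lowered the count, to 619 without wild-type library 70, 631 without wild-type library 89 and 630 without Foxp2hum/hum library 60.

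The libraries limit how large an undetected difference could be. For 13722 genes (70.1%) the 95% interval of the fold difference lay within 1.5-fold in either direction, and the share was 86.7% of the 15263 genes that averaged 50 or more. Estimates beyond 1.5-fold were found for 504 genes, of which 38 averaged 50 or more. The median log2 difference over all genes was -0.0087.

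**Figure D2:**
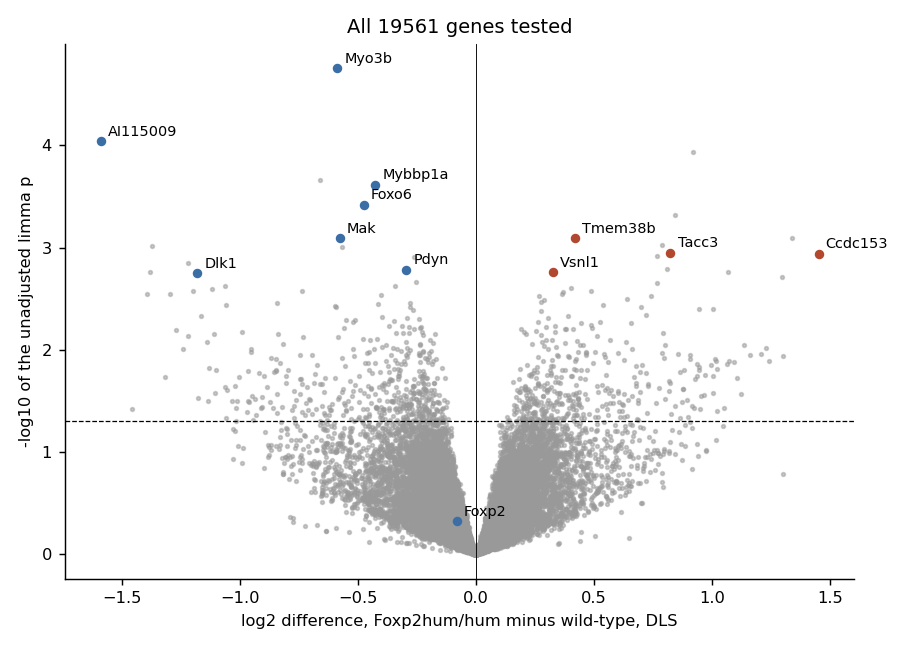
Log2 difference (x axis, Foxp2hum/hum minus wild-type in DLS) against -log10 of the unadjusted limma p (y axis) for 19561 genes, 1 point per gene, with named genes coloured and the dashed line at 0.05. Myo3b stands highest at a log2 difference of -0.59, Foxp2 lies near the middle, and no point passes adjustment.

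Myo3b came closest to a difference, and it was lower in Foxp2hum/hum. It encodes a class III unconventional myosin, an actin motor with a kinase domain that is known from the tips of actin protrusions in sensory hair cells. Myo3b (chromosome 2, 69877183 to 70267255) ran from 226 to 437 normalised reads with a median of 317 in Foxp2hum/hum, and from 372 to 761 with a median of 473 in wild-type. All 12 Foxp2hum/hum libraries lay below the wild-type median and 8 below the lowest wild-type library. In turn, 8 of the 11 wild-type libraries lay above the highest Foxp2hum/hum library, and the groups overlapped between 372 and 437. The log2 difference was -0.59 ± 0.12 (SE), a 1.5-fold lower level, with a 95% interval of -0.84 to -0.34. Its unadjusted p was 1.76e-05 and its limma adjusted p 0.344, so it did not pass. In tissue taken whole, fewer cells that express a gene and less RNA per cell cannot be told apart.

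Myo3b did pass in a pair of alternative fits. DESeq2 on the recovered reads gave a log2 difference of -0.59 with adjusted p = 0.0196, and limma with library weights gave -0.63 with adjusted p = 0.012. Its adjusted p ran from 0.0120 to 1 over the settings that kept every library or left out 2, and from 0.133 to 0.995 when 1 library was left out at a time. The estimate kept its sign throughout, between -0.63 and -0.48. The 3 lowest wild-type libraries for Myo3b (51, 43 and 58) were also the 3 with the highest mitochondrial share of reads in that group. With that share as a covariate the difference was -0.52 ± 0.12 (SE). Without Foxp2hum/hum library 60 and wild-type library 70, the least alike libraries, it was -0.49 ± 0.12. Myo3b was singled out with earlier results of these data in view, so its rank is no independent evidence.

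Among the other myosins no difference was detected. Of 21 unconventional myosin genes tested, 0 were higher and 1, Myo3b, lower at an unadjusted p under 0.05. Over all genes 2.33% were lower at that mark. The median log2 difference of the 21 was -0.14, against -0.0087 over all genes. Myo5a, which carries vesicles and endoplasmic reticulum into dendritic spines, averaged 4273 ± 572 in Foxp2hum/hum and 4835 ± 839 in wild-type (SD), a log2 difference of -0.17 ± 0.089 (SE). Myo16, a neuronal myosin gene, averaged 146 ± 45.4 in Foxp2hum/hum and 185 ± 72.4 in wild-type, with a log2 difference of -0.31 ± 0.17 (SE). Myo3a, the other class III gene, could not be measured, since genes with mitochondrial copies in its span (Gm13340 alone at 372034 in Foxp2hum/hum and 330278 in wild-type) fill its value. Of 6 tested genes for proteins that meet class III myosins at actin protrusions, 0 had an unadjusted p under 0.05. They included Whrn, the whirlin scaffold gene (147 ± 38.4 in Foxp2hum/hum and 177 ± 40.4 in wild-type), and Morn4, which encodes a membrane-binding partner of these myosins (735 ± 95.1 in Foxp2hum/hum and 699 ± 109.7 in wild-type).

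Pdyn, which encodes the precursor of the dynorphin peptides, was the other gene examined by name. Dynorphins act on kappa opioid receptors and are made by direct-pathway neurons, with high levels in the striosome patches. Pdyn (chromosome 2, 129512301 to 129525580) ran from 578 to 953 normalised reads with a median of 702 in Foxp2hum/hum, and from 649.6 to 1193 with a median of 890.5 in wild-type. Of the 12 Foxp2hum/hum libraries 11 lay below the wild-type median, but only 1 below the lowest wild-type library, so the groups overlapped widely. The log2 difference was -0.29 ± 0.088 (SE), with unadjusted p = 0.00165 and limma adjusted p = 0.843. It passed in no alternative, with adjusted p between 0.382 and 1. Like Myo3b, Pdyn was singled out with earlier results of these data in view. Counts for lists that hold Pdyn therefore include a gene picked beforehand.

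The other opioid genes gave no such value. Penk, the enkephalin precursor gene of indirect-pathway neurons, averaged 25012 ± 3647 in Foxp2hum/hum and 25912 ± 2865 in wild-type (SD, n = 12 and 11). Oprk1, which encodes the kappa receptor for dynorphins, averaged 189.9 ± 62 in Foxp2hum/hum and 187 ± 39.3 in wild-type, and Oprm1, the mu receptor gene that marks striosomes, 298 ± 102 in Foxp2hum/hum and 293 ± 86.4 in wild-type. Oprd1, the delta receptor gene, averaged 248 ± 95 in Foxp2hum/hum and 317 ± 118 in wild-type, with a log2 difference of -0.36 ± 0.26 (SE). Of the 8 opioid peptide and receptor genes, 0 were higher and 1, Pdyn, lower at an unadjusted p under 0.05. Over all genes 2.33% were lower at that mark. Of the 8, 5 had an interval within 1.5-fold.

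Direct-pathway genes were examined as the class to which Pdyn belongs. Of 8 tested, 0 were higher and 2 lower at an unadjusted p under 0.05, where 2.33% of all genes were lower. One of the 2 was Pdyn itself, picked beforehand, so the count is no independent evidence on the class. The median log2 difference of the 8 was -0.13, against -0.0087 over all genes. It was -0.040 with Ccdc153 as covariate, a choice made after seeing the data. The other lower gene was Sfxn1, a mitochondrial serine transporter gene. It ran from 1608 to 2397 normalised reads with a median of 1894 in Foxp2hum/hum, and from 1859 to 2761 with a median of 2369 in wild-type. Its Foxp2hum/hum libraries lay low but within the wild-type span for the most part, with 3 below the lowest wild-type library. Its log2 difference was -0.22 ± 0.084 (SE), with unadjusted p = 0.0104 and limma adjusted p = 0.843. In the defining genes of the class no difference was detected. Drd1a, the D1 dopamine receptor gene, averaged 4189 ± 515 in Foxp2hum/hum and 4345 ± 519 in wild-type (SD), and Tac1, the substance P precursor gene, 6371 ± 2058 in Foxp2hum/hum and 6347 ± 1526 in wild-type. Chrm4, a muscarinic receptor gene of these neurons, averaged 1560.1 ± 197 in Foxp2hum/hum and 1707 ± 220.3 in wild-type. Of the 8, 7 had an interval within 1.5-fold.

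Striosome and matrix are the neurochemical compartments of the striatum. Of 10 striosome genes, 0 were higher and 3 lower at an unadjusted p under 0.05, where 2.33% of all genes were lower, and the median log2 difference was -0.12. The number of the 10 at that mark was 1 with the Crym over Cnr1 ratio as covariate and 1 without Foxp2hum/hum library 60 and wild-type library 70. It was 4 with 1 surrogate variable and 4 with 3. In the main fit the 3 lower genes were Pdyn, which was picked beforehand, Kremen1 and Lypd1. Kremen1, a Wnt co-receptor gene, averaged 628 ± 127 in Foxp2hum/hum and 764 ± 118 in wild-type, a log2 difference of -0.29 ± 0.13 (SE). Lypd1 encodes a modulator of nicotinic receptors. Lypd1 averaged 1253 ± 156 in Foxp2hum/hum and 1395 ± 162 in wild-type, but Gpr39 overlaps it with 92.3% of its value, so the pair may share reads. Of 7 matrix genes 0 passed that mark, with a median of -0.021. Calb1, the calbindin gene that defines the matrix, averaged 3131 ± 513 in Foxp2hum/hum and 3165 ± 410.0 in wild-type (SD).

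No difference was detected in indirect-pathway genes. Drd2, the D2 dopamine receptor gene, averaged 7552 ± 972 in Foxp2hum/hum and 7925 ± 1015 in wild-type (SD), and Adora2a, the adenosine receptor gene that accompanies it, 7711 ± 891 in Foxp2hum/hum and 8208 ± 1140.2 in wild-type. All 7 members had an interval within 1.5-fold, 0 had an unadjusted p under 0.05, and the median log2 difference was -0.085. Among 22 genes shared by all projection neurons 0 had an unadjusted p under 0.05 and 20 lay within 1.5-fold. Ppp1r1b averaged 43059 ± 5977 in Foxp2hum/hum and 43986 ± 3773 in wild-type, although 1700003D09Rik overlaps it with 78.8% of its value. Bcl11b, the transcription factor gene of projection neuron identity, averaged 3466 ± 974 in Foxp2hum/hum and 4271 ± 1333 in wild-type, a log2 difference of -0.28 ± 0.17 (SE). Rxrg, a retinoid receptor gene, averaged 7293 ± 535 in Foxp2hum/hum and 6723 ± 919.5 in wild-type, a log2 difference of 0.13 ± 0.069 (SE).

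The position of the capture within the striatum was compared through genes with a known mediolateral gradient. Of 9 dorsolateral genes, 0 had an unadjusted p under 0.05 and all 9 lay within 1.5-fold. Their median log2 difference was -0.090, with 2 of the 9 positive. Of 9 dorsomedial genes, 1 was higher and 1 lower at that mark, where 1.98% of all genes were higher and 2.33% lower. Their median was 0.19, with 6 of the 9 positive, so the 2 medians had opposite signs. The dorsolateral median was near the -0.086 of the genes shared by projection neurons. Dorsomedial genes also differed in sign among themselves, with Crym at 0.19 ± 0.13 (SE) and Wfs1 at -0.24 ± 0.16 (SE). Khdrbs2, an RNA-binding protein gene, averaged 73.9 ± 14.7 in Foxp2hum/hum and 62.1 ± 14.1 in wild-type (SD), a log2 difference of 0.25 ± 0.12 (SE) with unadjusted p = 0.0408. Dlk1, which encodes a Notch-like membrane protein, ran from 0.967 to 15 normalised reads with a median of 4.77 in Foxp2hum/hum, and from 1.18 to 31.9 with a median of 12.8 in wild-type. These are few reads, and 10 of 12 Foxp2hum/hum libraries lay below the wild-type median. Dlk1 reached the mean needed for testing through the DMS, where it averaged 56 in Foxp2hum/hum and 56.9 in wild-type. In DLS it averaged 5.79 in Foxp2hum/hum and 13 in wild-type. Its log2 difference was -1.18 ± 0.36 (SE), with unadjusted p = 0.00178 and limma adjusted p = 0.843. The log2 ratio of Crym over Cnr1 averaged -5.20 ± 0.40 in Foxp2hum/hum and -5.49 ± 0.73 in wild-type (SD, n = 12 and 11, two-sided permutation p = 0.231).

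Dopamine and plasticity genes were examined because work on Foxp2hum/hum mice elsewhere reported altered dopamine levels and stronger striatal long-term depression. Of 18 dopamine receptor and signalling genes, 0 had an unadjusted p under 0.05 and 16 lay within 1.5-fold. Drd5, a D1-like receptor gene, averaged 61.8 ± 20.4 in Foxp2hum/hum and 47 ± 13.6 in wild-type (SD), with Gm16766 overlapping at 51.2% of its value. Th, the gene of the enzyme that limits dopamine synthesis, averaged 78.4 ± 20.9 in Foxp2hum/hum and 78.1 ± 29.4 in wild-type. Pde10a, which breaks down cyclic nucleotides in projection neurons, averaged 21629.5 ± 5279.6 in Foxp2hum/hum and 24461 ± 6361 in wild-type. None of the 3 differed beyond the spread between libraries.

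Of 18 endocannabinoid and long-term depression genes, 0 had an unadjusted p under 0.05 and 16 lay within 1.5-fold, with a median log2 difference of -0.076. Dagla, whose enzyme makes the endocannabinoid 2-arachidonoylglycerol, averaged 1494 ± 417 in Foxp2hum/hum and 1741 ± 492 in wild-type (SD), and Grm5, the metabotropic glutamate receptor gene that starts this form of plasticity, 3192 ± 757 in Foxp2hum/hum and 3295 ± 516 in wild-type. Plcb4, a phospholipase C gene, averaged 343 ± 48.2 in Foxp2hum/hum and 389 ± 46.9 in wild-type, a log2 difference of -0.18 ± 0.11 (SE). Glutamate receptor genes gave 0 of 22 at an unadjusted p under 0.05 and 17 within 1.5-fold. Grin2b, an NMDA receptor subunit gene, varied widely between libraries, at 425 ± 245 in Foxp2hum/hum and 564 ± 325 in wild-type, so a difference was not detectable. Potassium and sodium channel genes gave 0 of 23, with 19 within 1.5-fold; Kcnip2, which encodes a partner of A-type potassium channels, averaged 5447 ± 504 in Foxp2hum/hum and 5831 ± 541 in wild-type.

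Immediate early genes, which neuronal activity switches on, varied widely between libraries. Only 5 of 18 had an interval within 1.5-fold, against 70.1% of all genes. At an unadjusted p under 0.05, 0 were higher and 2 lower, where 2.33% of all genes were lower, and the median log2 difference was -0.22. Npas4, an activity-dependent transcription factor gene, ran from 9.31 to 370.5 normalised reads with a median of 77.2 in Foxp2hum/hum, and from 49.1 to 375 with a median of 139 in wild-type. The ranges were nearly the same at the top, while 5 Foxp2hum/hum libraries lay below the lowest wild-type library. Its log2 difference was -1.13 ± 0.51 (SE), with unadjusted p = 0.0314 and limma adjusted p = 0.843. Jun averaged 155 ± 26.1 in Foxp2hum/hum and 195 ± 59.1 in wild-type (SD), with BC042782 overlapping at 23.4% of its value. Fos, the standard activity marker, averaged 92.2 ± 73.8 in Foxp2hum/hum and 102 ± 60.7 in wild-type, and Arc, a synaptic gene of this class, 1871 ± 1010.4 in Foxp2hum/hum and 2181 ± 805 in wild-type. The summed level of the list was not distinguishable between the groups, at 15646 ± 4967 in Foxp2hum/hum and 17479 ± 4710 in wild-type (two-sided permutation p = 0.367).

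The genes through which FOXP2 might act were examined next. Of 24 genes named as FOXP2 targets in studies of other cells and species, 23 were in the table, 16 had enough reads to test, and 0 had an unadjusted p under 0.05. Cntnap2, a neurexin-family gene linked to language, averaged 978 ± 148 in Foxp2hum/hum and 1049.7 ± 210.2 in wild-type (SD), a log2 difference of -0.092 ± 0.11 (SE). Mef2c, a gene that restrains corticostriatal synapse formation, averaged 1068 ± 235 in Foxp2hum/hum and 1062 ± 228 in wild-type. Vldlr, a reelin receptor gene, averaged 832 ± 174 in Foxp2hum/hum and 872 ± 126 in wild-type, and Dab1, which carries the reelin signal, 1160.3 ± 192 in Foxp2hum/hum and 1304 ± 222 in wild-type (log2 -0.17 ± 0.09 (SE)). The intervals of 11 of the 16 lay within 1.5-fold, 68.8% against 70.1% of all genes.

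At an unadjusted p under 0.05, 2.33% of all genes were lower. Of 15 tested Foxp family members and partners, 0 were higher and 1 lower at that mark. That gene was Mta1, which encodes a subunit of the NuRD repressor complex and averaged 618 ± 60.9 in Foxp2hum/hum and 698 ± 114 in wild-type (SD), a log2 difference of -0.16 ± 0.077 (SE) with unadjusted p = 0.0387. Foxp1, the dimer partner that projection neurons also make, averaged 4424 ± 1238 in Foxp2hum/hum and 5254 ± 1613 in wild-type, and Foxp4 208 ± 65.6 in Foxp2hum/hum and 244 ± 60.4 in wild-type. Neurite outgrowth and guidance genes, relevant because longer dendrites were reported elsewhere in these mice, gave 0 of 25 at an unadjusted p under 0.05. Their median log2 difference was -0.15, and 14 lay within 1.5-fold. Wasf1, an actin nucleation regulator, had the smallest p of that list (0.0543), at 1879 ± 274 in Foxp2hum/hum and 2102 ± 232 in wild-type.

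**Figure D3:**
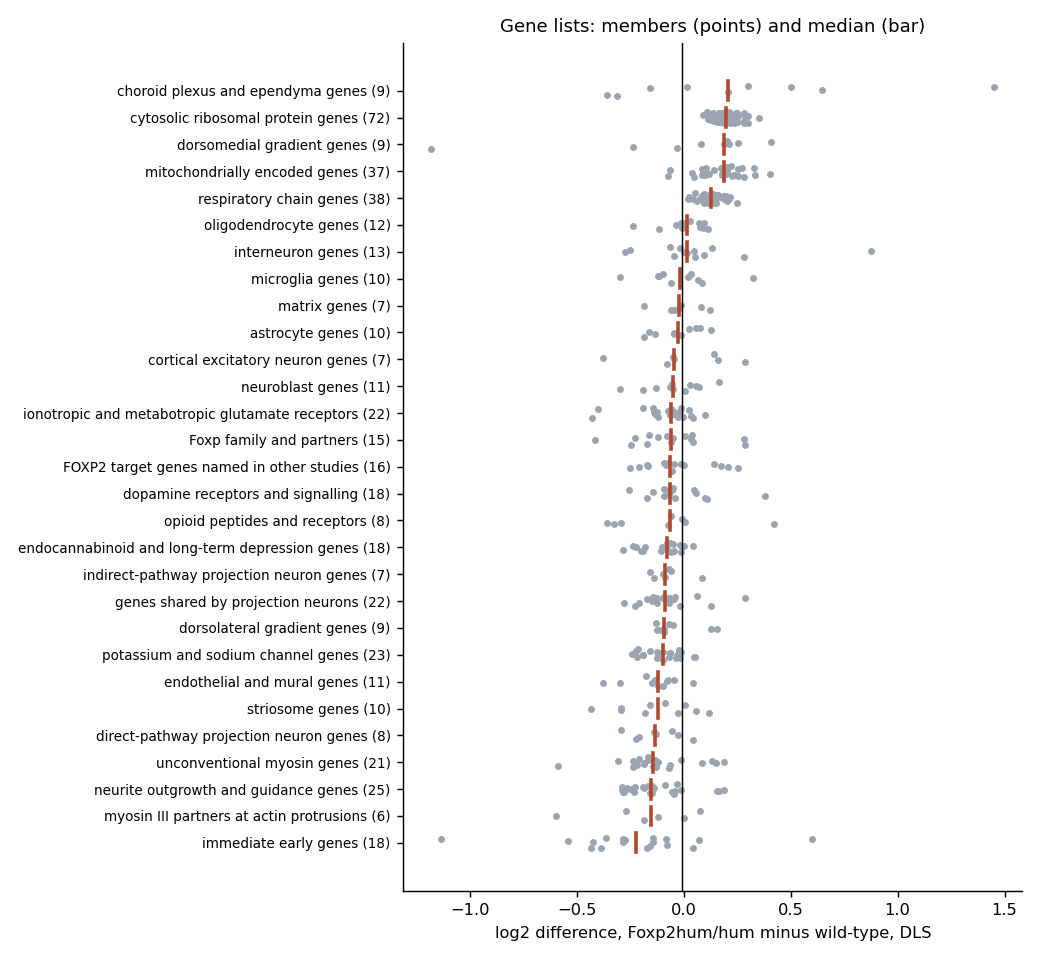
Log2 differences (x axis, Foxp2hum/hum minus wild-type in DLS) of the tested members of 29 gene lists, 1 point per gene, with a bar at the median and the number tested in brackets. Ribosomal, respiratory chain and mitochondrially encoded genes lie right of 0, with medians of 0.20, 0.13 and 0.19. The direct-pathway, indirect-pathway and shared projection neuron lists lie a little left of 0, with medians of -0.13, -0.085 and -0.086. Most other lists also lie left of 0, some further, such as immediate early (-0.22), neurite outgrowth (-0.15) and unconventional myosin genes (-0.14).

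The 12 higher and 12 lower genes that the naming rule took from the head of the ranking each had a limma adjusted p of 0.843 or, for Myo3b, 0.344. Of the 12 higher in Foxp2hum/hum, Tmem38b, a cation channel gene of the endoplasmic reticulum, came first. It ran from 61.9 to 137 normalised reads with a median of 90.6 in Foxp2hum/hum, and from 46.2 to 85.4 with a median of 70.8 in wild-type. In all, 9 of 12 Foxp2hum/hum libraries lay above the highest wild-type library, but the lowest Foxp2hum/hum library lay within the wild-type range. It differed by a log2 of 0.42 ± 0.12 (SE), with unadjusted p = 0.00081. Tacc3, a gene of spindle microtubules, ran from 23.3 to 89.96 normalised reads with a median of 56.1 in Foxp2hum/hum, and from 13.6 to 75.1 with a median of 28.9 in wild-type, a log2 difference of 0.82 ± 0.24 (SE). Vsnl1, which encodes the neuronal calcium sensor visinin-like 1, ran from 621 to 1156 normalised reads with a median of 948 in Foxp2hum/hum, and from 525 to 1017 with a median of 646 in wild-type, and 11 of 12 Foxp2hum/hum libraries lay above the wild-type median. On the log2 scale Vsnl1 differed by 0.33 ± 0.10 (SE), with unadjusted p = 0.00175.

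Protein folding, actin and membrane genes were also among the 12. Hspb8, a small heat shock protein gene, averaged 253 ± 43.8 in Foxp2hum/hum and 207 ± 31.8 in wild-type (SD), and Cotl1, an actin-binding protein gene, 330.3 ± 69.2 in Foxp2hum/hum and 268 ± 27.9 in wild-type. Stx2, a syntaxin gene of membrane fusion, averaged 144 ± 15.9 in Foxp2hum/hum and 119.9 ± 19 in wild-type, and Tmem173, which encodes the DNA-sensing adaptor STING, 62.8 ± 19.2 in Foxp2hum/hum and 43.3 ± 13.9 in wild-type. Mitochondrial translation was represented by Mrpl50, a ribosomal subunit gene (529 ± 86.5 in Foxp2hum/hum and 434 ± 82.9 in wild-type), and Mtrf1l, a release factor gene (74.7 ± 16.2 in Foxp2hum/hum and 53.5 ± 14.9 in wild-type). Zfp781, a zinc finger gene, averaged 104 ± 45.4 in Foxp2hum/hum and 63.3 ± 18.3 in wild-type. The others may share reads with an overlapping gene: Bola2 overlaps Giyd2 and has 289.9% of its value, and Lrrc59 overlaps Eme1 with 755%.

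Of the 12 lower in Foxp2hum/hum, Myo3b and Pdyn are described above. Mybbp1a, a nucleolar corepressor gene, ran from 266 to 527 normalised reads with a median of 413 in Foxp2hum/hum, and from 362 to 708 with a median of 571 in wild-type. All 12 Foxp2hum/hum libraries lay below the wild-type median, but only 2 below the lowest wild-type library. The log2 difference was -0.43 ± 0.11 (SE), with unadjusted p = 0.000243, and Spns2 overlaps Mybbp1a with 48% of its value. Foxo6, a forkhead gene of the brain, ran from 74.9 to 187 normalised reads with a median of 98.2 in Foxp2hum/hum, and from 130.4 to 183 with a median of 157 in wild-type. In 8 of 12 Foxp2hum/hum libraries it lay below every wild-type library, while the highest of all 23 was also Foxp2hum/hum. Its log2 difference was -0.47 ± 0.12 (SE), with unadjusted p = 0.000381.

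The rest included kinase, phosphatase, transport and chromatin genes. Mak, a kinase gene of cilia and germ cells, averaged 65.2 ± 20.6 in Foxp2hum/hum and 94.4 ± 13.4 in wild-type (SD), and Mtm1, a phosphoinositide phosphatase gene, 51.1 ± 17.3 in Foxp2hum/hum and 73 ± 12.2 in wild-type. Klc2, a kinesin light chain gene of axonal transport, averaged 1592 ± 222 in Foxp2hum/hum and 1904 ± 244 in wild-type, and all 12 Foxp2hum/hum libraries lay below the wild-type median. Its log2 difference was -0.26 ± 0.076 (SE), a 1.2-fold lower level. Ehmt1, a histone methyltransferase gene, averaged 259.7 ± 58.5 in Foxp2hum/hum and 341 ± 70.01 in wild-type, and Nat10, an RNA acetyltransferase gene, 217 ± 41.2 in Foxp2hum/hum and 275 ± 50.3 in wild-type. Tmem19 averaged 323 ± 45.8 in Foxp2hum/hum and 392 ± 55.5 in wild-type. Dcakd and AC087117.1 may share reads with overlapping genes, since AL731670.1 has 739% of the value of Dcakd and Vars 425% of that of AC087117.1.

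The same genes were then set beside the DMS, the region of goal-directed learning, measured in other libraries of the same genotypes. Myo3b averaged 172 in Foxp2hum/hum DMS and 188 in wild-type DMS, a log2 difference of -0.12, against -0.59 in DLS. The interaction of genotype and region, the test of that contrast, had unadjusted p = 0.00984 and limma adjusted p = 0.9999. Pdyn averaged 2224 in Foxp2hum/hum DMS and 2241 in wild-type DMS, a log2 difference of -0.0069, against -0.29 in DLS. Its interaction had unadjusted p = 0.0257 and limma adjusted p = 0.9999. Neither gene was therefore shown to differ between the regions in its response to genotype. Over all genes 0 passed the interaction at an adjusted p under 0.05 and 321 (1.64%) had an unadjusted p under 0.05. The smallest adjusted p was 0.9999, and the smallest adjusted p for genotype in DMS was 0.955.

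Among the other named genes, Vsnl1 had a DMS log2 difference of 0.21 and Stx2 of 0.17, on the same side as in DLS. Mybbp1a had -0.17, Foxo6 -0.16 and Klc2 -0.11, also on the same side and smaller. In 5 of the 24 top-ranked genes the sign was opposite. Tacc3 and Tmem173 had DMS values of -0.21 and -0.22, against DLS values of 0.82 and 0.54. Mtm1 had 0.039 in DMS, Hspb8 -0.032 and Cotl1 -0.021, all near 0, against -0.57, 0.29 and 0.28 in DLS. The interaction had unadjusted p = 0.00335 for Tacc3, 0.00392 for Tmem173, 0.0108 for Mtm1, 0.0187 for Hspb8 and 0.0234 for Cotl1, and limma adjusted p = 0.9999 for all 5.

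**Figure D4:**
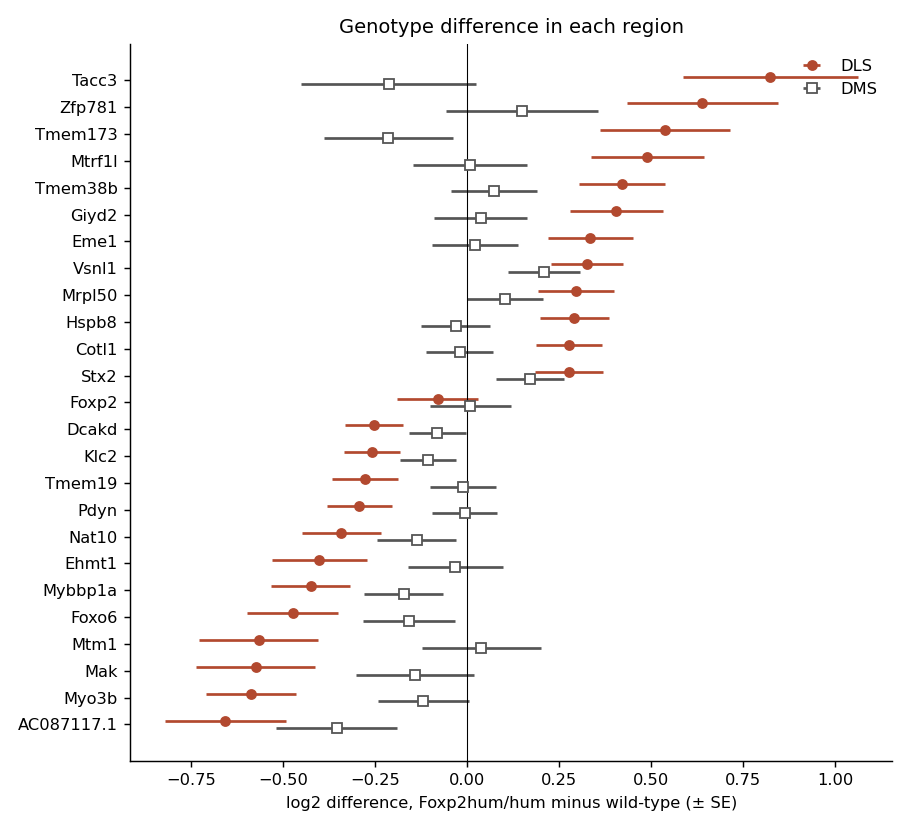
Log2 difference between genotypes (x axis, Foxp2hum/hum minus wild-type, ± SE) in DLS (filled circles) and DMS (open squares) for Foxp2 and the 12 top-ranked genes in each direction in DLS. Because the genes were picked for their DLS values, the DMS values nearer 0 are a description; Tacc3, Tmem173, Mtm1, Hspb8, Cotl1 and Foxp2 have opposite signs in the 2 regions, and no interaction passed adjustment.

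Markers of other cells that a capture could hold were compared in the same libraries. Beside the counts that follow, 1.98% of all genes were higher and 2.33% lower at an unadjusted p under 0.05. Oligodendrocyte genes gave 0 of 12 higher and 1 lower at an unadjusted p under 0.05, all 12 within 1.5-fold. The lower gene was Sox10, a transcription factor gene of the lineage, at 374 ± 40.7 in Foxp2hum/hum and 444 ± 74 in wild-type (SD, log2 -0.24 ± 0.087 (SE), unadjusted p = 0.00903). Interneuron genes gave 0 of 13 higher and 1 lower, Chat, the acetylcholine synthesis gene of cholinergic interneurons, at 481 ± 74.2 in Foxp2hum/hum and 586 ± 114 in wild-type (log2 -0.28 ± 0.13 (SE)). All 12 Foxp2hum/hum libraries lay below the wild-type median of Chat, though only 1 below the lowest wild-type library. Slc5a7, the choline transporter gene of the same cells, averaged 601 ± 132 in Foxp2hum/hum and 627 ± 135 in wild-type, and Pvalb, of fast-spiking interneurons, 326 ± 122 in Foxp2hum/hum and 320.0 ± 108 in wild-type. Astrocyte (10), microglia (10), endothelial and mural (11), cortical (7) and neuroblast genes (11 tested) gave 0 at an unadjusted p under 0.05. Of these, 9 astrocyte, 8 microglia, 7 endothelial and mural, 1 cortical and 7 neuroblast genes lay within 1.5-fold. The cortical list thus left room for larger differences. Only 1 of the 11 endothelial and mural genes had a positive difference (median log2 -0.12).

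The cortical neuron gene Slc17a7 ran from 40.2 to 864 normalised reads with a median of 148 in Foxp2hum/hum, and from 32.4 to 783 with a median of 133 in wild-type, so libraries of both genotypes held varying cortical transcript. The summed cortical list ran from 349 to 1597 in Foxp2hum/hum and from 417 to 1753 in wild-type (two-sided permutation p = 0.742). For none of the 16 library measures compared was the permutation p under 0.1, and the smallest Benjamini-Hochberg adjusted value was 0.716.

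Cilia and choroid plexus markers were at low levels. Ccdc153, a gene of motile cilia in ependymal cells, had a value above 0 in 8 of 12 Foxp2hum/hum libraries, with a highest value of 27.9 and a median of 1.67. It was at 0 in 9 of 11 wild-type libraries, with a highest value of 2.15. On the log2(value + 1) scale the difference was 1.45 ± 0.42 (SE), with unadjusted p = 0.00114 and limma adjusted p = 0.843. DESeq2 gave a log2 difference of 3.84, on the scale of counts with no pseudocount of 1, and adjusted p = 0.0196, and over the other settings with every library or without 2 the adjusted p ran from 0.450 to 1. Of the 9 genes of that list tested, 1 was higher and 1 lower at an unadjusted p under 0.05, and 0 lay within 1.5-fold. Over all genes 1.98% were higher and 2.33% lower. The lower gene was Clic6, a chloride channel gene, at 111 ± 38.7 in Foxp2hum/hum and 138 ± 28.8 in wild-type. Ttr, which defines the choroid plexus, was at 0 in 4 of 12 Foxp2hum/hum and 5 of 11 wild-type libraries, and Folr1 at 0 in 8 of 12 and 8 of 11. The summed list ran from 171 to 318 in Foxp2hum/hum and from 183 to 424 in wild-type. Ccdc153 reached the mean needed for testing only through the DMS, where it averaged 196 in Foxp2hum/hum and 151 in wild-type. With Ccdc153 as a covariate the Myo3b difference was -0.53 ± 0.14 (SE).

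The gene with the second smallest adjusted p, AI115009, was outside the rule for named genes and was added after its values were seen. It lies within the span of Ak5, whose value is 2301% of its own, and it had few reads. It too was tested only because of its DMS level, 26.8 in Foxp2hum/hum and 28.1 in wild-type. AI115009 ran from 0 to 9.16 normalised reads with a median of 1.5 in Foxp2hum/hum, and from 0 to 20.8 with a median of 8.3 in wild-type. Its log2 difference was -1.59 ± 0.37 (SE), with unadjusted p = 9.07e-05 and limma adjusted p = 0.759. It passed with DESeq2 (log2 -1.86, adjusted p = 0.0196) and without wild-type library 77 (log2 -1.89, limma adjusted p = 0.0144). Library 77 was the 1 wild-type library with no read of it.

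Genes of the ribosome and of the respiratory chain lay together on the higher side in Foxp2hum/hum, each by a small amount. Of 72 cytosolic ribosomal protein genes, all had a positive difference, with a median log2 of 0.20, and 2 were higher and 0 lower at an unadjusted p under 0.05, where 1.98% of all genes were higher. With library weights 21 of the 72 had an unadjusted p under 0.05, where 1816 of all 19561 genes did. With Ccdc153 as a covariate, a choice made after seeing the data, 0 of the 72 did, against 540 of all genes. Rpl3 ran from 5857 to 10062 normalised reads with a median of 7590.0 in Foxp2hum/hum, and from 4912 to 8776 with a median of 6535 in wild-type. It lay above the wild-type median in 11 of 12 Foxp2hum/hum libraries, and the log2 difference was 0.25 ± 0.10 (SE) (unadjusted p = 0.0155, limma adjusted p = 0.843). All 38 nuclear respiratory chain genes had a positive difference (median log2 0.13), 0 with an unadjusted p under 0.05 and all 38 within 1.5-fold. Cox6c, a cytochrome oxidase subunit gene, averaged 3899 ± 1159 in Foxp2hum/hum and 3302 ± 1086 in wild-type (SD). Of 37 mitochondrially encoded genes, 35 had a positive difference (median 0.19) and 0 an unadjusted p under 0.05.

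The share of mitochondrially encoded reads stood beside those medians. They made up 24.8% ± 2.87 of the reads in Foxp2hum/hum and 22.7% ± 3.61 in wild-type (SD, n = 12 and 11), a difference of 2.08 percentage points (two-sided permutation p = 0.137). Without wild-type library 51, which had the highest share of its group at 29.3%, the difference was 2.75 (permutation p = 0.0388). With the share as a covariate the median log2 was 0.080 for ribosomal, 0.069 for respiratory chain and 0.016 for mitochondrially encoded genes. With the Crym over Cnr1 ratio as covariate these medians were 0.051, 0.026 and 0.16. In that fit 64 of 72, 26 of 38 and 35 of 37 genes had a positive difference. With 3 surrogate variables these were 0.032, 0.022 and 0.086, and without Foxp2hum/hum library 60 and wild-type library 70 they were 0.091, 0.051 and 0.14. With Ccdc153 as a covariate the shared sign was gone from the first 2 lists: 36 of 72 ribosomal genes (median -0.00033) and 19 of 38 respiratory chain genes (median -0.00019) had a positive difference. For mitochondrially encoded genes it was 29 of 37 (median 0.068). The fit drew on libraries of both regions, and Ccdc153 was low in the DLS and higher in the DMS. Ccdc153 was chosen after seeing the data and was itself higher in Foxp2hum/hum DLS, by a log2 of 1.45 ± 0.42 (SE). Adjusting for such a gene can remove genotype differences along with it. Whether Ccdc153 accounts for the shared sign was therefore not tested. The members of a list come from the same libraries, so their shared sign is not many independent observations.

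**Figure D5:**
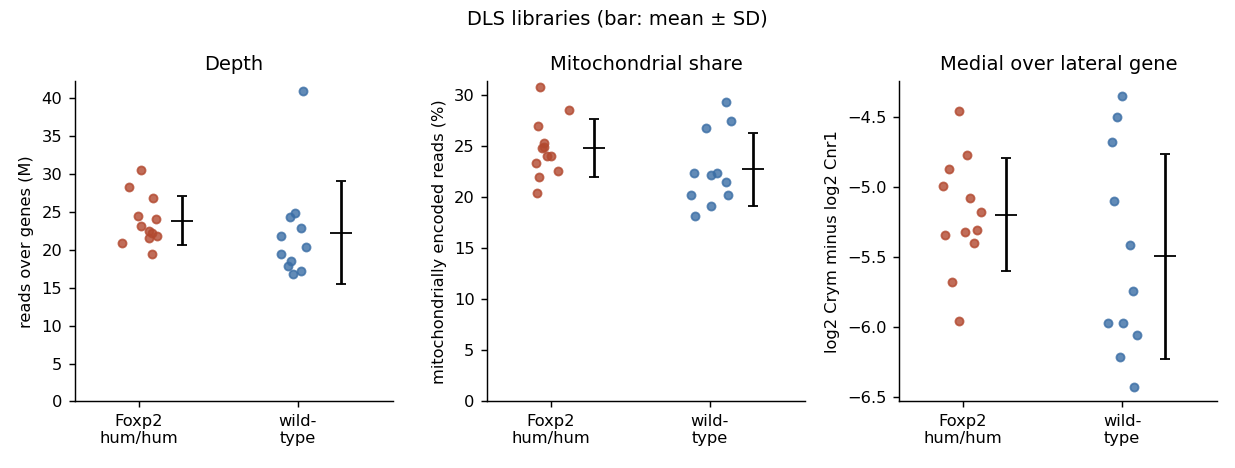
Reads over genes, share of mitochondrially encoded reads, and the log2 ratio of Crym over Cnr1 in the DLS libraries, 1 point per library, with Foxp2hum/hum left of wild-type and a bar for the mean ± SD. The groups overlap in all 3 panels, with 24.8% against 22.7% mitochondrially encoded reads and the wider spread of the Crym to Cnr1 ratio in wild-type.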

How the data were processed

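Expression was measured by RNA sequencing of laser-captured striatum, in 46 libraries. The deposited signal values are read counts per gene that the authors divided by a DESeq size factor per library, per the submitters' processing notes, which name TopHat 1.4.1, bedtools, DESeq and the mm9 build. Dividing by the smallest step of each library gave whole reads (100.0% within 0.01), so counts were recovered for edgeR 4.0.16 and DESeq2 1.42.0, run as alternatives. The sources used here do not give the strand setting or how overlapping genes were counted. Genes that overlap appear to share reads, so an overlapping gene's value is given beside the named gene. Overlap was read from whole gene spans on either strand, and the sharing of reads was not tested.

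Libraries were grouped by label. Values were transformed as log2(value + 1), and 19561 genes with a mean of at least 10 over all 46 libraries were fitted with limma 3.58.1 (trend, R 4.3.3) as 4 group means over 46 libraries, with Benjamini-Hochberg adjustment over all genes; 5698 genes were left out. Adjusted values are limma's unless another tool is named. A fold change on this scale understates that of low genes. The script was tested on simulated data. Single library measures were compared by permutation, with 100000 resamples. The named genes were Foxp2, Myo3b, Pdyn, in each direction the 12 of smallest p among genes averaging 50 or more in the higher genotype and without a clone-type symbol, up to 3 members of each list by p, and the most highly expressed member of each striatal list; a few others were named from the lists for their known roles. The members and lists were chosen with earlier results of these data known. Alternatives covered pseudocount, filter, samples fitted, tool, normalisation, library weights, covariates and leaving out each library. The replicates of a group differed by more than sampling noise, with a chi-square per degree of freedom of 9.25 or more. Sequence and coordinates come from GENCODE M1 on NCBIM37 (mm9), to which 25023 genes were matched.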

Additional observations from a re-analysis of the deposited data

How the results depend on the processing

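No paired analysis was possible because the labels do not tie same-numbered libraries of the groups to an animal or batch. The count at an adjusted p under 0.05, 0 in the main limma fit, was 3 with DESeq2, 1 with library weights and 0 to 1 when a library was left out. The count at an unadjusted p under 0.05 was 1816 with library weights, 540 with Ccdc153 as covariate, 500 without the libraries least like the rest (60 and 70), and 619 to 1821 when a library was left out. Other settings gave 576 to 1168. The share of genes with an interval within 1.5-fold ran from 54.2% with no filter to 86.5% with a mean of at least 50, and from 65.6% to 72.4% when a library was left out. The difference in mitochondrially encoded share ran from 1.54 to 2.75 percentage points. The covariate Ccdc153, the surrogate variables and the fit without libraries 60 and 70 were chosen after seeing the data.

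Of 4319 values for 111 named genes over the alternatives, 4282 kept their sign and their side of the threshold, 32 reversed and 5 passed it. Foxp2 was at 0.013 with the Crym over Cnr1 ratio as covariate, 0.032 with Ccdc153, 0.00517 with 1 surrogate variable and 0.00056 with 3. With Ccdc153 as covariate Epha4 was at 0.019, Rgs9 at 0.0035, Scn8a at 0.049, Nos1 at 0.053, Sox9 at 0.011 and Sepw1 at -0.065. With 3 surrogate variables Cacna1c was at 0.0016, Grin2b at 0.019, Scn8a at 0.0269, Nos1 at 0.059 and Sepw1 at -0.050; with 1, Nos1 was at 0.018 and Sepw1 at -0.041. Sepw1 was at -0.0082 with the Crym over Cnr1 ratio. Quantile normalisation put Pde1b at 0.012 and Penk at 0.033. Tac1 was at 0.00502 with edgeR and 0.00541 with DESeq2, and Aif1 at -0.068 without libraries 60 and 70. When a library was left out, Slc17a7 ran from -0.059 to 0.40, Tac1 from -0.10 to 0.070, Ppp1r1b from -0.067 to 0.0078 and Calb1 from -0.065 to 0.0093. The causes were not tested. The interaction was not refitted with covariates, or without single libraries, and edgeR gives no interval. Depth limits low genes most.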
